A study of Mus musculus with 10 samples.

Results

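Cytosolic DNA sensing and nucleic acid clearance were followed here through 10 named genes: the DNA sensor gene Cgas, the adaptor gene Sting1, the kinase gene Tbk1, the sensor genes Aim2, Zbp1, Ifi204, Ifi205 and Ifi209, and the enzyme genes Trex1 and Samhd1. Each gene was read by its brightest probe set annotated to exactly 1 symbol. That rule found 9 of the 10 genes, among 19938 genes measured on the same arrays. Ifi204 has no probe set of its own and was read only by a probe set that it shares with its relative Ifi211.

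The samples were immortalized mouse macrophages of 2 lines, a TLR9KO line, which lacks Toll-like receptor 9, and a wild-type B6 line. The titles name B6 for the wild-type bead arrays only, and the unstimulated wild-type arrays were taken as the same line. Each line either received β-1,3 glucan beads, at 20 beads per cell, and was harvested after 4 h, or was left unstimulated. The TLR9KO line has 2 bead arrays and 2 unstimulated arrays, and the wild-type line has 3 bead arrays and 3 unstimulated arrays. How the lines were immortalized is not stated in the labels. Each genotype is a single named line, so genotype and line cannot be told apart. The titles also hold bracketed numbers of no stated meaning, lower for every TLR9KO array than for any wild-type array. Should they record when arrays were handled, handling and line cannot be told apart either. Nothing in the labels ties arrays of the same group to separate cultures, and p-values therefore reflect the spread between arrays, which may be technical. In bulk samples such as these, fewer cells of a type and less RNA per cell cannot be told apart.

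DNA in the cytosol is a danger signal, because a healthy cell keeps its own DNA in the nucleus and mitochondria. The enzyme cGAS binds double-stranded DNA and makes the messenger cGAMP, which activates STING on the endoplasmic reticulum. STING recruits the kinase TBK1, which activates the transcription factor IRF3 and with it type I interferon. PYHIN proteins, the family of AIM2 and the IFI200 proteins, bind DNA through their HIN domains. AIM2 assembles an inflammasome with the adaptor ASC, and ZBP1 recognises left-handed nucleic acids and can start cell death through RIPK3. TREX1 degrades DNA in the cytosol and SAMHD1 destroys the nucleotides that DNA synthesis needs, and loss of either protein causes interferon-driven disease in humans. TLR9 itself senses DNA in endosomes, through a separate adaptor.

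In the unstimulated cells the 3 genes of the core relay, Cgas, Sting1 and Tbk1, and Zbp1 did not pass the test between the lines. The PYHIN genes Ifi209 and Ifi205 and the enzyme genes Samhd1 and Trex1 were higher in the TLR9KO line, and Aim2 was lower. Values are log2 signals, so a difference of 1 is a doubling of signal. A gene was called where its limma p, adjusted by Benjamini-Hochberg over all 19938 genes, was under 0.05. Of the 9 genes with their own probe set, 4 passed as higher and 1 as lower, where 3.79% of all genes passed as higher, 4.46% as lower and 8.25% in either direction. With beads 3 passed as higher and 0 as lower, against 3.82% and 3.4% of all genes, 7.22% together. The median difference of the 9 genes, TLR9KO minus wild type, was 0.39 unstimulated and 0.35 with beads, against 0.02 and -0.01 over all genes. Without unstimulated TLR9KO array 1 the 5 genes called without beads became 2, Ifi209 and Samhd1, and without wild-type bead array 3 the 3 called with beads became 5, with Aim2 and Trex1 in addition. In each treatment 6 of the 9 had arrays that did not overlap between the lines, where 38.8% of all genes did so without beads and 23.6% with beads.

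**Figure D1:**
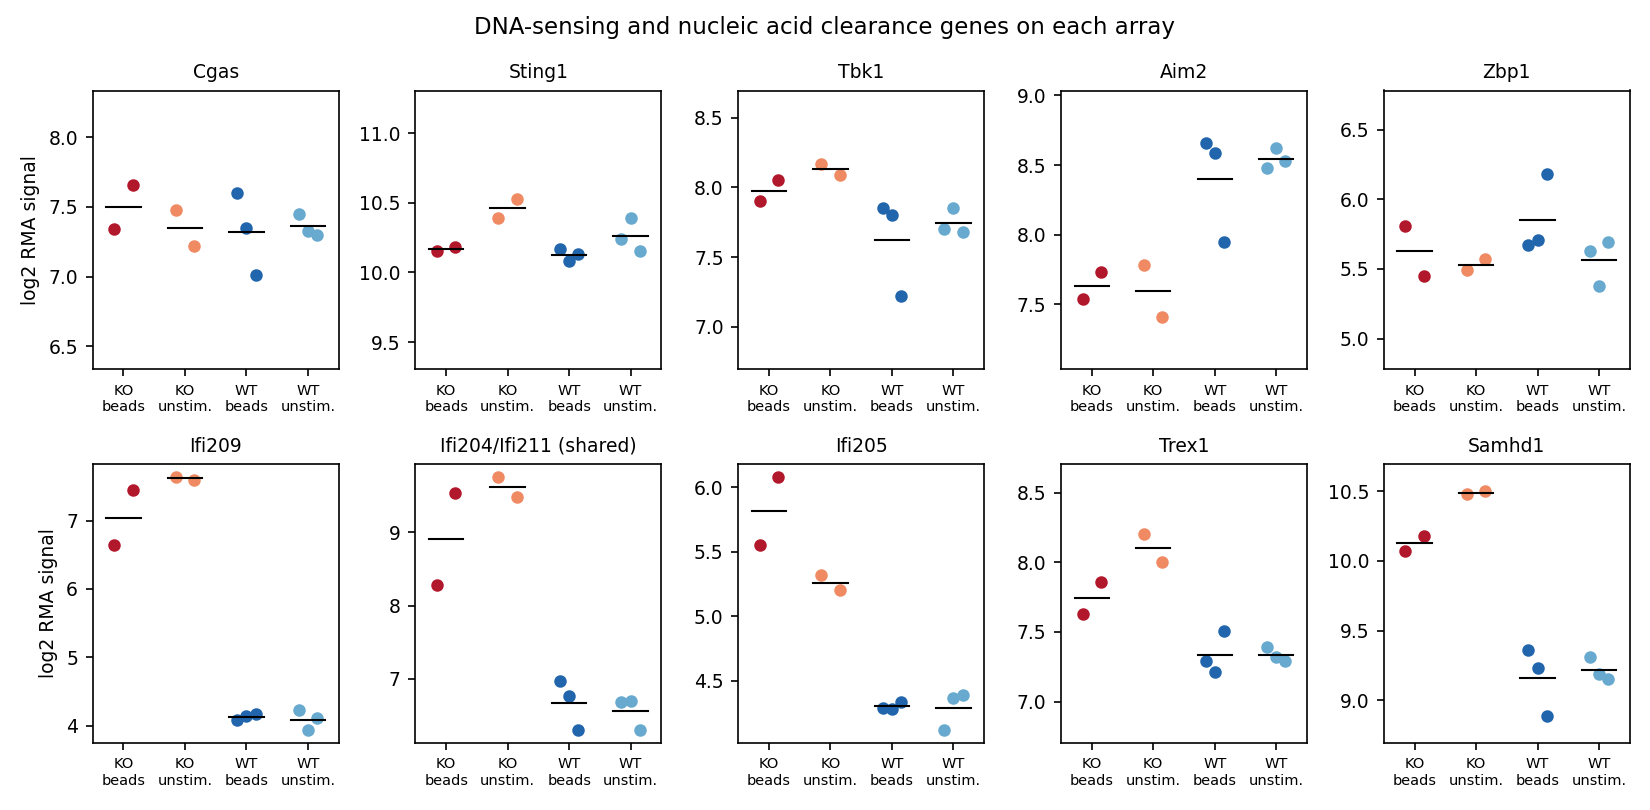
Log2 RMA signal (vertical axes, a range of its own in each panel) of the 9 measured genes and of the probe set shared by Ifi204 and Ifi211 on each of the 10 arrays, with points for arrays and bars for group means. The TLR9KO arrays lie above all wild-type arrays for Ifi209, Ifi204/Ifi211, Ifi205, Trex1 and Samhd1, and by a small margin for Tbk1. They lie below all of them for Aim2 and overlap them for Cgas, Sting1 and Zbp1.

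Cgas, the gene of the sensor that starts the relay, corresponds to probe set 10595171. Unstimulated TLR9KO arrays had log2 signals of 7.48 and 7.22, against 7.45, 7.33 and 7.30 in the unstimulated wild-type arrays. With beads it was 7.34 and 7.66 in TLR9KO, against 7.60, 7.35 and 7.01 in wild type. The groups overlapped in both treatments. The difference between the lines was -0.01 ± 0.18 (SE; 95% interval -0.41 to 0.38) unstimulated and 0.18 ± 0.18 (-0.21 to 0.58) with beads. These intervals leave room for differences of up to 0.58.

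Sting1, the gene of the adaptor that cGAMP binds, had log2 signals of 10.39 and 10.53 in the unstimulated TLR9KO arrays, against 10.24, 10.39 and 10.15 in wild type. With beads it had 10.15 and 10.18 in TLR9KO, against 10.17, 10.08 and 10.13 in wild type. The arrays of the lines overlapped in both treatments. The line difference was 0.20 ± 0.10 (SE; 95% interval -0.03 to 0.42; limma adjusted p = 0.381) unstimulated and 0.04 ± 0.10 (-0.19 to 0.26) with beads.

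Tbk1, the gene of the kinase below STING, had log2 signals of 8.17 and 8.09 in the unstimulated TLR9KO arrays, against 7.70, 7.85 and 7.68 in wild type. With beads it had 7.90 and 8.05 in TLR9KO, against 7.85, 7.80 and 7.22 in wild type. Both TLR9KO arrays lay above the wild-type arrays in each treatment, by a small margin with beads. The difference was 0.39 ± 0.18 (SE; 95% interval -0.01 to 0.79; limma adjusted p = 0.297) unstimulated and 0.35 ± 0.18 (-0.05 to 0.75; adjusted p = 0.41) with beads, and neither passed. With wild-type bead array 3 left out the unstimulated difference passed (0.39, adjusted p = 0.0101), an array that enters this comparison only through the shared estimate of the spread, and its adjusted p ran from 0.0016 to 0.823 over all alternatives.

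Zbp1, the gene of a sensor of left-handed nucleic acids that interferon is known to induce, had log2 signals of 5.49 and 5.57 in the unstimulated TLR9KO arrays, against 5.63, 5.38 and 5.69 in wild type. With beads it had 5.81 and 5.45 in TLR9KO, against 5.67, 5.71 and 6.18 in wild type. The lines overlapped throughout, and 0 of the 10 values was below the 25th percentile of its array. The signal was still low: on every array except wild-type bead array 3 it lay below the array median. The low-signal filter removed this gene, so a lack of difference here is a weak reading. The difference was -0.03 ± 0.18 (SE; 95% interval -0.43 to 0.37) unstimulated and -0.22 ± 0.18 (-0.62 to 0.17) with beads.

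Aim2, the gene of the inflammasome sensor, was the 1 gene of the 9 that was lower in the TLR9KO line. It read 7.78 and 7.41 on the unstimulated TLR9KO arrays, against 8.48, 8.62 and 8.53 in wild type. With beads it was 7.54 and 7.73 in TLR9KO, against 8.66, 8.59 and 7.95 in wild type. All TLR9KO arrays lay below all wild-type arrays, the nearest being wild-type bead array 3. The unstimulated difference of -0.94 ± 0.21 (SE), a signal 0.52 times that of wild type, passed (limma adjusted p = 0.0209), and that with beads, -0.76 ± 0.21, did not (adjusted p = 0.059). The unstimulated call ended when any 1 of the 5 unstimulated arrays was left out (differences of -1.12 to -0.76) and after centring each array on its median. Without wild-type bead array 3 the bead difference passed at -0.99 (adjusted p = 3.0e-04), with adjusted p from 3.6e-05 to 0.369 over all alternatives.

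Ifi209, a mouse PYHIN gene, was higher in the TLR9KO line in both treatments. It read 7.64 and 7.59 on the unstimulated TLR9KO arrays, against 4.23, 3.94 and 4.11 in wild type. With beads it was 6.64 and 7.44 in TLR9KO, against 4.09, 4.15 and 4.17 in wild type. Every wild-type value lay below the 25th percentile of its array, a percentile that ran from 4.6 to 4.87 over the arrays. The file has no detection calls, so the size of the difference is not a measured fold. The difference was 3.52 ± 0.20 (SE; 95% interval 3.07 to 3.97; limma adjusted p = 8.8e-06) unstimulated and 2.90 ± 0.20 (adjusted p = 2.7e-05) with beads. It passed under every alternative tried, 20 in each comparison.

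Ifi204, a DNA-binding mouse PYHIN gene related to human IFI16, can be followed only through the probe set it shares with Ifi211. That probe set, shown as Ifi204/Ifi211 (shared), read 9.76 and 9.48 in the unstimulated TLR9KO arrays, against 6.68, 6.70 and 6.30 in wild type. With beads it read 8.28 and 9.54 in TLR9KO, against 6.97, 6.76 and 6.30 in wild type. The lines did not overlap, and the 2 TLR9KO bead arrays were 1.26 apart, with array 1 the lower. In the limma fit over all 28853 probe sets the TLR9KO line was 8.35-fold higher unstimulated (3.06 ± 0.34, SE; adjusted p = 8.6e-04) and 4.68-fold higher with beads (2.23 ± 0.34; adjusted p = 0.00531). The bead difference was 2.86 without TLR9KO bead array 1 and 1.60 without array 2, and its call ended in a fit of the bead groups alone (adjusted p = 0.0907; over all alternatives from 1.5e-04 to 0.0907). How much of this signal belongs to Ifi204 and how much to Ifi211 cannot be told apart.

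Ifi205, a mouse PYHIN gene whose product acts in the nucleus, had log2 signals of 5.32 and 5.20 in the unstimulated TLR9KO arrays, against 4.12, 4.37 and 4.39 in wild type. With beads it had 5.55 and 6.08 in TLR9KO, against 4.29, 4.28 and 4.34 in wild type. Here too every wild-type value lay below the 25th percentile of its array, and every TLR9KO value above it. The difference was 0.97 ± 0.15 (SE; limma adjusted p = 0.00435) unstimulated and 1.51 ± 0.15 (adjusted p = 3.2e-04) with beads. The unstimulated call ended without unstimulated TLR9KO array 1 (0.91, adjusted p = 0.0598; over all alternatives from 1.0e-04 to 0.0598).

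**Figure D2:**
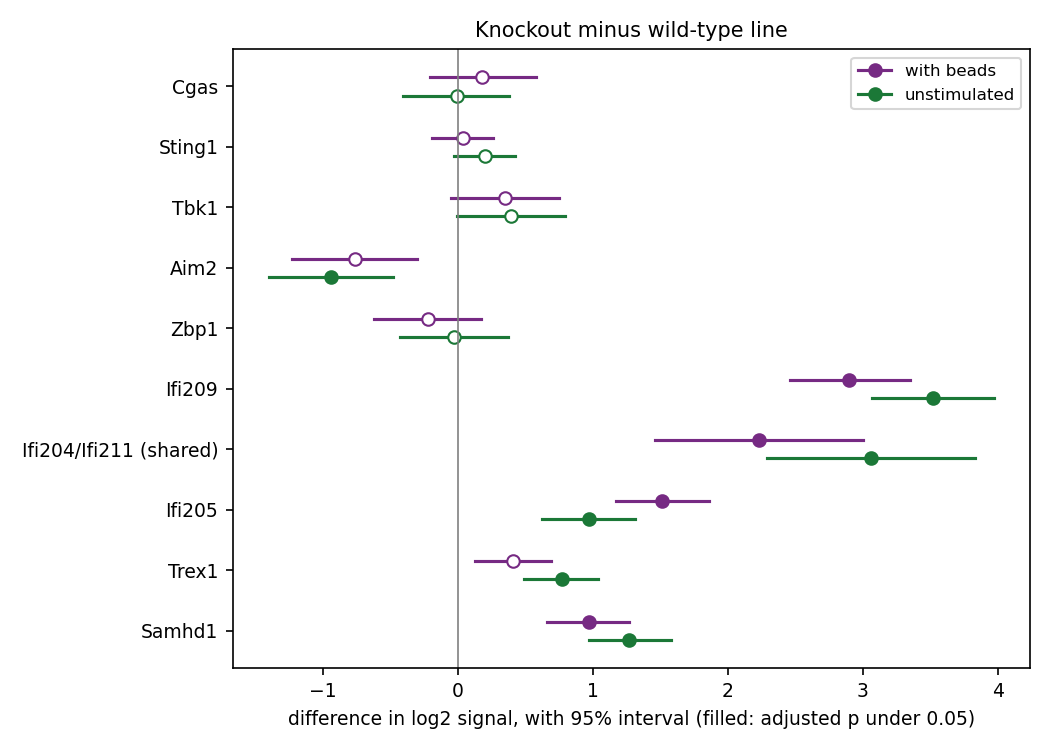
TLR9KO minus wild-type difference in log2 signal (horizontal axis) with its 95% interval from the limma fit, with beads in purple and unstimulated in green, filled where the adjusted p is under 0.05. Ifi209 and the shared Ifi204/Ifi211 probe set lie furthest to the right, Samhd1 and Ifi205 also pass in both treatments, and the intervals of Cgas, Sting1, Tbk1 and Zbp1 include 0.

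The other PYHIN genes were taken from a list of the family. Unstimulated, 5 of 6 measured members were higher in the TLR9KO line and 0 lower, with a median difference of 1.18. With beads 2 were higher and 0 lower, with a median of 0.48. Of all genes, 3.79% passed as higher unstimulated and 3.82% with beads. Ifi207 read 11.91 and 11.78 in the unstimulated TLR9KO arrays, against 9.82, 10.06 and 9.84 in wild type, a difference of 1.94 ± 0.24 (SE), and with beads the difference was 1.99 ± 0.24. Ifi203 was higher by 1.90 ± 0.31 unstimulated and by 1.40 ± 0.31 with beads. Ifi206 (1.20 ± 0.19) and Ifi213 (1.16 ± 0.23) passed unstimulated only, and their bead differences were 0.66 and 0.29. Whether the 2 treatments differ in this was tested by the difference of the bead responses, which 0 of the 6 genes passed. Ifi208 and Ifi214 fall outside the rule for naming genes and are given because they complete the family, after their values were seen: Ifi208 was higher by 0.67 unstimulated (adjusted p = 0.0378) and Ifi214, at 0.33, did not pass (adjusted p = 0.134). The unstimulated wild-type signals of Ifi206, Ifi208, Ifi213 and Ifi214 all lay below the 25th percentile of their arrays. PYHIN genes are close copies of each other, so each probe set may also take signal from a relative.

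The PYHIN genes are neighbours on chromosome 1. In the RefSeq gene order of GRCm38.p6, 12 family genes follow each other as Aim2, Ifi206, Ifi214, Ifi213, Ifi209, Ifi208, Ifi207, Ifi204, Mndal, Ifi211, Ifi203 and Ifi205. Aim2, at the start of this order, was lower in the TLR9KO line, and every other measured gene of it had a positive difference in both treatments. Since the wild-type signals of Ifi209, Ifi205 and several of their neighbours lay near the bottom of the scale, the sizes of these differences give no rank along the order.

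**Figure D3:**
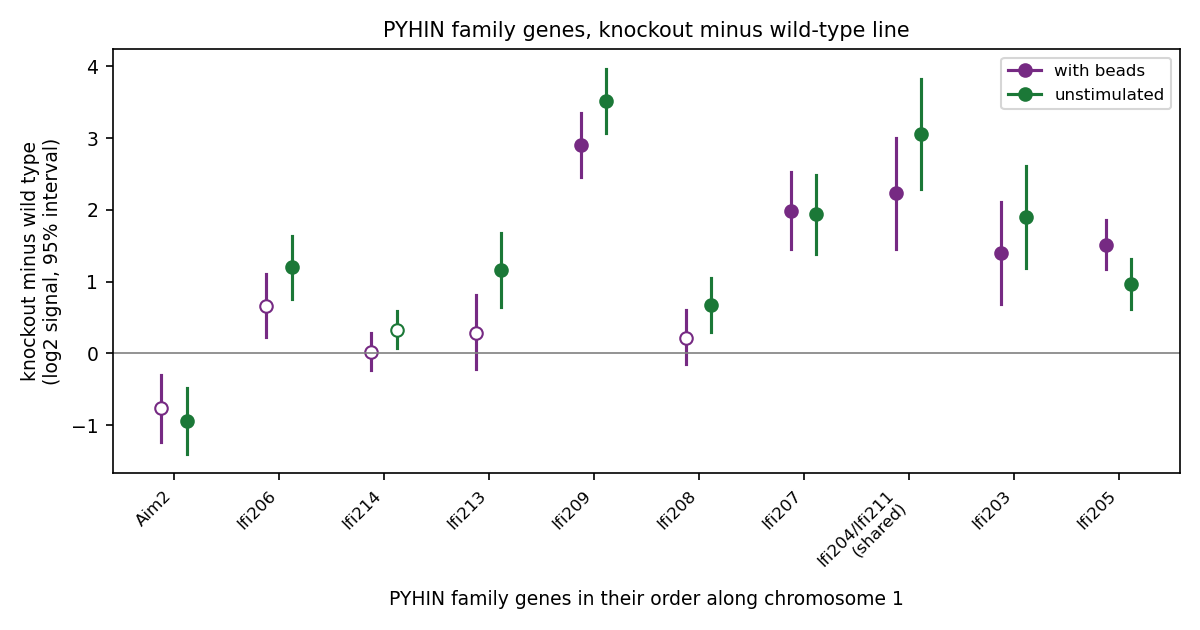
TLR9KO minus wild-type difference in log2 signal (vertical axis, 95% intervals) of the measured PYHIN genes in their order along chromosome 1, with beads in purple and unstimulated in green, filled where the adjusted p is under 0.05. Aim2 is the only gene below 0, and Ifi209, Ifi207, the shared Ifi204/Ifi211 probe set, Ifi203 and Ifi205 pass above 0 in both treatments.

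The promoters of the family are shown because several of its genes passed between the lines, most of them as higher in TLR9KO and Aim2 as lower. The sequences are from RefSeq (GRCm38.p6), from 250 bases before to 50 bases after each annotated start. Windows were searched for 7 of the 10 genes, Cgas, Trex1, Aim2, Ifi205, Ifi209, Samhd1 and Tbk1, and for 11 PYHIN genes in all. Zbp1 and Ifi204 have no entry in the promoter reference, and Sting1 was left out of the search. GAAA, 2 bases of any kind and GAAA again, letters that resemble the element bound by interferon regulatory factors, were searched on both strands. They occur in at least 1 entry of 9 of the 11 PYHIN genes and, counted by entry, in 3.44% of all 32851 promoter entries. The count by gene and the share by entry are unlike measures. Several of these PYHIN promoters are also close copies of each other, so their matches are not independent. The same letters with a G before them occur in 1.15% of entries. Ifi205, Ifi211, Ifi207, Ifi203, Ifi206, Ifi208, Ifi213 and Ifi214 each have a match before their start, furthest from it in Ifi205. These matches are given in 40-base windows on the strand of the gene, with the match in capitals. For Ifi203 the window is that of the second of its starts. Ifi209 has no match, and the last line is its stretch aligned to Ifi214, with the aligned letters in capitals.
Ifi205 (chr1:174031865-174031904, minus strand): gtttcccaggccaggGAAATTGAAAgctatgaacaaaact
Ifi211 (chr1:173913059-173913098, minus strand): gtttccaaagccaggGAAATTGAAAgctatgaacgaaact
Ifi207 (chr1:173741826-173741865, minus strand): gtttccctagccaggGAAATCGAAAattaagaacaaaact
Ifi203 (chr1:173942503-173942542, minus strand): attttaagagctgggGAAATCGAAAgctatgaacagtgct
Ifi206 (chr1:173491334-173491373, minus strand): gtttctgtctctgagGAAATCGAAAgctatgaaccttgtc
Ifi208 (chr1:173673592-173673631, plus strand): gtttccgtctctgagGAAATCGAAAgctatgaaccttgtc
Ifi213 (chr1:173599321-173599360, minus strand): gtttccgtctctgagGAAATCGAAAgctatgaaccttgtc
Ifi214 (chr1:173536012-173536051, minus strand): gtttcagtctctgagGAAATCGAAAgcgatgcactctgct
Ifi209 (chr1:173630765-173630804, plus strand): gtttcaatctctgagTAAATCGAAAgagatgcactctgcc

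Counted from the start, the match begins at position -134 in Ifi205 and at -41 in Ifi207. The promoters of Ifi209 and Ifi214 are nearly the same, with 287 of 300 aligned columns identical (95.7%). Counted from 1 at the first base of the match in Ifi214, the aligned Ifi209 stretch differs within these letters by G1T. The Ifi205 and Ifi211 promoters were 93.5% identical over 201 aligned columns, and those of Ifi208 and Ifi213 98.9% over 285. The whole windows of Ifi205 and Ifi209 are printed here because both are among the 10 genes, have a probe set of their own and passed as higher in both treatments (Ifi207, Ifi203 and the shared probe set, outside that choice, passed in both as well), Ifi205 with both of its matches in capitals (the second on the opposite strand, after the start) and Ifi209 with none.
Ifi205 (chr1:174031706-174032005, minus strand): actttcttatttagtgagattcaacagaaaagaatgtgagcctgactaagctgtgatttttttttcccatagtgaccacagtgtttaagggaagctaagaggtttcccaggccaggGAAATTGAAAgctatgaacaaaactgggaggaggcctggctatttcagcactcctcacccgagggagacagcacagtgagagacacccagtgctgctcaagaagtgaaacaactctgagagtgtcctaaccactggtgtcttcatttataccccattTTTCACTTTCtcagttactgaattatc
Ifi209 (chr1:173630609-173630908, plus strand): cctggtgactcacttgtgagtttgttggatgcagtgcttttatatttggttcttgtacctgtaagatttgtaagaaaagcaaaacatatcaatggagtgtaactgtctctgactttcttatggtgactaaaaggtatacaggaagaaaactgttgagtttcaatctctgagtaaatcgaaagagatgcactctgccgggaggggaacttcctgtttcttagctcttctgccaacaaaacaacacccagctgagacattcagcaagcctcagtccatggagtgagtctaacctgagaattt

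Other letters searched on both strands were GAAANGAAA (3.17% of entries), TTCNNNGAA, which resembles the element of STAT factors (8.3%), and GGGA, any base and TTTCC, which resembles that of NF-kappaB (0.411%). None of the 5 patterns was found in the windows of Cgas, Tbk1, Trex1, Aim2 or Ifi209. The Samhd1 window holds TTCNNNGAA at position -235. A match in letters is a description and not a binding site.

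Trex1, the gene of the exonuclease that clears cytosolic DNA, lies on chromosome 9. It read 8.20 and 8.0 on the unstimulated TLR9KO arrays, against 7.39, 7.32 and 7.29 in wild type. With beads it was 7.63 and 7.86 in TLR9KO, against 7.29, 7.21 and 7.51 in wild type. The lines did not overlap in either treatment, and the gap was narrower with beads. Unstimulated, the TLR9KO line was 1.70-fold higher (0.77 ± 0.12, SE; 95% interval 0.49 to 1.04; limma adjusted p = 0.00455), and with beads the difference of 0.41 ± 0.12 did not pass (adjusted p = 0.0933). The unstimulated call ended without unstimulated TLR9KO array 1 (0.67, adjusted p = 0.0683; over all alternatives from 2.5e-05 to 0.0683). The bead difference passed without wild-type bead array 3 (0.49, adjusted p = 0.00817; over all alternatives from 9.2e-04 to 0.584).

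Samhd1, the gene of the enzyme that depletes deoxynucleotides and restricts retroviruses, lies on chromosome 2. It read 10.48 and 10.50 on the unstimulated TLR9KO arrays, against 9.31, 9.19 and 9.15 in wild type. With beads it was 10.07 and 10.18 in TLR9KO, against 9.36, 9.23 and 8.89 in wild type. All TLR9KO arrays lay above all wild-type arrays, with every array well above the 25th percentile. The TLR9KO line was 2.42-fold higher unstimulated (1.27 ± 0.14, SE; 95% interval 0.97 to 1.58; limma adjusted p = 4.1e-04) and 1.95-fold higher with beads (0.97 ± 0.14; adjusted p = 0.00221). The bead call ended narrowly after centring on the median (0.94, adjusted p = 0.052) and in a fit of the bead groups alone (adjusted p = 0.0594), and its adjusted p over all alternatives ran from 1.2e-05 to 0.0594.

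None of the bead responses passed the test. In the TLR9KO line 0 of the 9 measured genes passed (0% of all genes passed), and in the wild-type line 0 passed (0% of all genes). The difference between the bead responses passed for 0 of the 9 (0% of all genes). At an unadjusted p under 0.05 in limma, 5 of the 9 differed in the TLR9KO line (1.8% of all genes), 0 in wild type (0.838%) and 1 in the difference of the responses (0.863%). In the TLR9KO line, beads minus unstimulated, Ifi205 was at 0.56 ± 0.17 (SE; limma unadjusted p = 0.00894), while Ifi209 (-0.57 ± 0.22), Samhd1 (-0.37 ± 0.15), Trex1 (-0.35 ± 0.13) and Sting1 (-0.29 ± 0.11) were negative. Each of these 5 has an adjusted p of 1. Ifi205 and Ifi209 had opposite signs on the same arrays: the lowest TLR9KO bead value of Ifi205 was above both its unstimulated values, and the highest of Ifi209 was below both. With 2 arrays against 2, such separation carries little weight. How many of all genes were separated in this way was not counted, so no count of members is read here. In the wild-type line the largest response was that of Zbp1, at 0.29 ± 0.16, and the other 8 lay between -0.14 and 0.04. The difference of the responses was 0.55 ± 0.22 for Ifi205 (unadjusted p = 0.0328) and -0.62 ± 0.28 for Ifi209 (unadjusted p = 0.0543). The shared Ifi204/Ifi211 probe set was at -0.72 ± 0.37 (95% interval -1.56 to 0.13) in the TLR9KO line and 0.12 ± 0.30 in wild type, and the difference of its responses was -0.84 ± 0.48 (-1.93 to 0.25), and neither passed (adjusted p = 1 each). Its TLR9KO response was -0.09 without TLR9KO bead array 1 and -1.35 without array 2. The bead responses and the line comparisons use the same arrays.

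**Figure D4:**
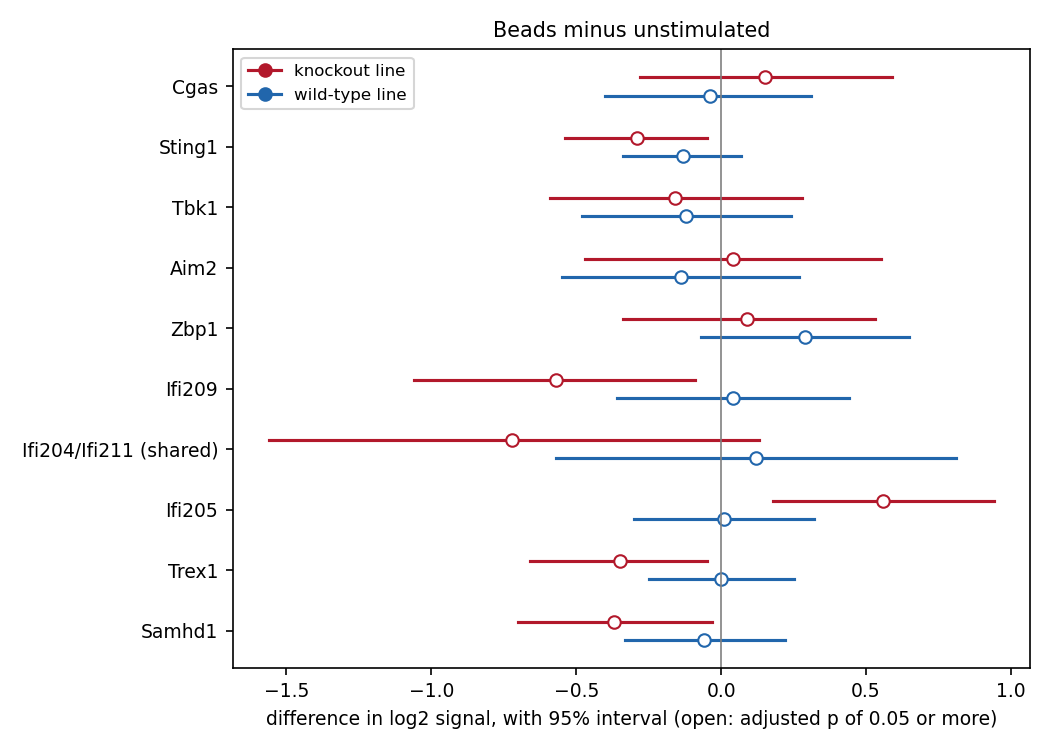
Beads minus unstimulated difference in log2 signal (horizontal axis) with its 95% interval from the limma fit, for the TLR9KO line in red and the wild-type line in blue. No gene has an adjusted p under 0.05, and in the TLR9KO line Ifi205 lies above 0 while Ifi209, Samhd1, Trex1 and Sting1 lie below.

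The arrays of the TLR9KO bead group differed in these genes. Array 1 minus array 2 was -1.26 for the shared Ifi204/Ifi211 probe set, -0.80 for Ifi209 and -0.53 for Ifi205, against a median of 0.03 over all genes, of which 8744 of 19938 were lower on array 1. With array 1 left out the bead response of Ifi209 was -0.17, and with array 2 left out it was -0.98. That of Ifi205 was 0.82 without array 1 and 0.29 without array 2. Other expressed lists moved the same way: array 1 was lower in 20 of 23 interferon-stimulated comparison genes (median -0.29), 17 of 19 other DNA sensors and cofactors (-0.28), 17 of 21 STING regulators (-0.17) and 11 of 12 macrophage markers (-0.22). Marker lists of low signal moved the other way, with 11 of 11 lymphocyte and 10 of 12 granulocyte markers higher on array 1. The part of this array difference in the bead responses was not tested.

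The rest of the pathway was read through lists around the members. For each list count in this and the following paragraphs, 8.25% of all genes passed unstimulated and 7.22% with beads, in either direction. A count near these shares is no result about its list. The other proposed DNA sensors and their cofactors had 0 higher and 1 lower of 19 in the unstimulated TLR9KO line (median -0.38), and the same counts with beads (median -0.24). The gene that passed was Xrcc5, which encodes the Ku80 subunit of DNA-dependent protein kinase, at -1.12 ± 0.21 unstimulated and -1.18 ± 0.21 with beads. Trafficking factors and regulators of STING had 2 higher and 3 lower of 21 unstimulated (median -0.04), and 3 higher and 1 lower with beads (median 0.06). Usp18, an interferon-induced gene whose product restrains interferon receptor signalling, differed most in both (3.15 ± 0.16 unstimulated and 2.88 ± 0.16 with beads). The cargo receptor gene Surf4, which returns proteins to the endoplasmic reticulum, was lower unstimulated (-0.51 ± 0.10), as was Tmed2 (-0.61 ± 0.15), and Ssr2 was higher (0.68 ± 0.15). With beads Ulk1, an autophagy kinase gene, was higher (0.50 ± 0.13).

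Signalling below STING and TBK1 had 4 higher and 0 lower of 12 in each treatment, with medians of 0.28 unstimulated and 0.16 with beads. The chemokine genes Cxcl10 and Ccl5 were higher by 4.14 ± 0.18 and 3.16 ± 0.23 unstimulated, and by 4.44 ± 0.18 and 2.93 ± 0.23 with beads. Irf7 passed as well, with Tbkbp1, which encodes a TBK1-binding adaptor, at 0.58 ± 0.12 unstimulated. The other 8 did not pass, among them Ifnb1 and Irf3, given outside the naming rule after their values were seen. Ifnb1, below the array median on every array, had means of 4.85 in TLR9KO and 4.92 in wild type unstimulated, and 4.77 and 4.89 with beads. Irf3 had 7.43 and 7.59, and 7.34 and 7.47. Unstimulated, 9 of the 12 differences were positive and 3 negative. Irf7 is also among the interferon-stimulated comparison genes, of which 21 of 23 were higher and 0 lower in each treatment, with medians of 2.73 unstimulated and 2.29 with beads. Most of these interferon-stimulated genes thus differed between the lines in the same direction as Ifi209, Ifi205, Samhd1 and Trex1. Their part in the results on these genes was not tested. In the TLR9KO bead response the list had a median of -0.26, with 20 genes negative and 3 positive, while Ifi205 was at 0.56. All genes had a median of 0.0 in this response, with 9603 negative and 10335 positive. TLR9KO bead array 1, which enters this response, was lower than array 2 in 20 of the 23 list genes. None of these bead responses passed.

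The AIM2 inflammasome list went both ways. Unstimulated, 3 of 8 measured genes were higher and 2 lower (median 0.54), and with beads 2 were higher and 1 lower (median 0.53). Pycard, which encodes ASC, the adaptor that AIM2 recruits, was lower in the TLR9KO line by -1.42 ± 0.16 unstimulated and -1.31 ± 0.16 with beads. The cytokine gene Il18 was higher (1.20 ± 0.20 and 1.15 ± 0.20), as was Casp4, whose mouse protein is known as caspase-11, unstimulated (1.23 ± 0.22). Among the cell death partners of ZBP1, 1 of 6 was higher and 0 lower in each treatment. It was the kinase gene Ripk3, at 1.26 ± 0.15 unstimulated and 1.33 ± 0.15 with beads.

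Beside Trex1 and Samhd1, 18 other genes of nucleic acid clearance were measured. Unstimulated, 2 were higher and 1 lower (median -0.09), and with beads 2 were higher and 0 lower (median -0.03). Dnase1l1, a member of the DNase I family, was higher by 1.48 ± 0.16 unstimulated and 1.38 ± 0.16 with beads, and Adar, which edits double-stranded RNA, by 1.37 ± 0.10 and 1.18 ± 0.10. Endog, the mitochondrial endonuclease gene, was lower unstimulated (-0.57 ± 0.10). Transporters and hydrolases of cGAMP had 0 of 9 passing unstimulated (2 at an unadjusted p under 0.05, where 17.9% of all genes were so) and 1 with beads, the channel subunit gene Lrrc8b (0.72 ± 0.17). Of the list genes named here, Xrcc5, Surf4, Tmed2, Ssr2, Ulk1, Tbkbp1, Il18, Casp4, Endog, Lrrc8b, Ifi203, Ifi206, Ifi208 and Ifi213 lost a call under at least 1 alternative.

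**Figure D5:**
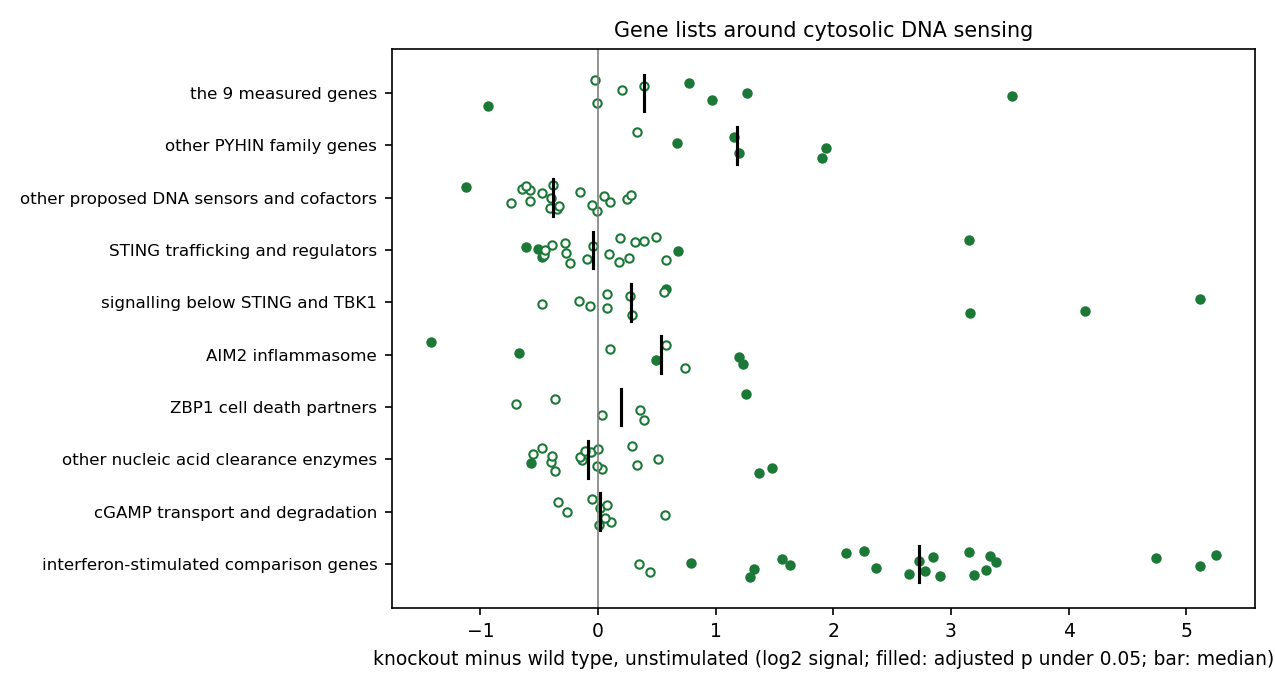
TLR9KO minus wild-type difference in log2 signal, unstimulated (horizontal axis), for each measured gene of the lists around cytosolic DNA sensing, filled where the adjusted p is under 0.05, with a bar at each list's median. The other PYHIN genes (median 1.18) and the interferon-stimulated comparison genes (median 2.73) lie to the right, while DNA sensors and cofactors (median -0.38) and clearance enzymes (median -0.09) lie around or left of 0.

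The genes most like each called member were taken by Pearson's r over the 10 arrays, as a description in which the line difference is shared by all of them. For Ifi209 they were Epsti1 and Hpgd (r = 0.997 each) and Ddx58 (0.996). For Samhd1 they were Mef2c (0.991), Sp100 (0.990) and Irgm1 (0.989), and for Trex1 H2-T24 (0.982), Tob2 (0.976) and Fcrls (0.975). For Ifi205 they were Neto2 (0.987), Zdhhc2 (0.982) and Slc16a10 (0.981). Their line differences were larger with beads than without, as that of Ifi205 was, a likeness that choosing by r on these arrays favours. For Aim2 they were Coq5 (0.995), Txndc11 and Vps29 (0.993 each).

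Wild-type bead array 3 stood apart from the rest, with a mean Pearson r across genes of 0.973 to its group mates against 0.985 to 0.997 for the other 9 arrays. Against the mean of arrays 1 and 2 it read Aim2 lower (-0.68), Tbk1 lower (-0.61) and Zbp1 higher (0.48). Its spread over genes was the narrowest (SD 1.75, against 1.86 to 2.00), and whole marker lists moved with it: 12 of 12 macrophage markers were lower (median -0.49), while 11 of 11 lymphocyte (0.42), 12 of 12 granulocyte (0.42) and 9 of 10 fibroblast markers (0.58) were higher. The median over all genes was 0.08, with 8652 lower and 11286 higher on this array. The part of this shift in the results on Aim2 and Tbk1 was not tested. Tlr9 itself, by probe set 10588479, read 7.44 and 7.62 in the unstimulated TLR9KO arrays, against 7.32, 6.91 and 7.25 in wild type. With beads it read 7.35 and 7.31 in TLR9KO, against 7.03, 7.21 and 7.44 in wild type. The position of the probes relative to the deletion is not stated in the labels, and the values check no label. All 12 macrophage markers were above the array median on every array. Their array means were 10.67 to 10.86 in TLR9KO with beads, 10.81 to 10.96 in TLR9KO unstimulated, 10.08 to 10.62 in wild type with beads and 10.38 to 10.43 in wild type unstimulated. Between the lines 4 macrophage markers were higher and 1 lower in each treatment. Cd14 (2.46 ± 0.18 unstimulated, 2.42 ± 0.18 with beads), Fcgr1 (1.14 ± 0.15 and 0.88 ± 0.15) and Adgre1 (0.89 ± 0.16 and 0.85 ± 0.16) were among the higher, and Mertk was the lower (-1.50 ± 0.21 and -1.94 ± 0.21). Adgre1 lost its call under at least 1 alternative in both treatments and Fcgr1 with beads, and the part of these marker differences in the results was not tested. Array means of the dendritic cell, lymphocyte, granulocyte and fibroblast markers were 4.62 to 5.97. In each group 6 of 10 dendritic cell, 10 of 11 lymphocyte, 11 or 12 of 12 granulocyte and 5 or 6 of 10 fibroblast markers were below the array median on all arrays, and 0 of these 43 genes passed in limma between the lines (0 also at an unadjusted p under 0.05, where 17.9% of all genes were so without beads and 16.1% with beads).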

How the data were processed

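Gene expression was measured on 10 Affymetrix arrays of total RNA, 100 ng per sample, labelled as cDNA. The authors deposited log2 signal values made with RMA, per the submitters' processing notes, which name no version. RMA corrects background, brings probe distributions to a common shape and summarises probes, and its shared scale can shift low signals. Array medians ran from 5.75 to 6.10. Of 28853 probe sets, 21789 carried 1 symbol, 1621 several and 5443 none in the platform annotation, and 19938 genes were tested, with the brightest probe set for each gene.

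In R 4.3.3, limma 3.58.1 (lmFit, then eBayes with neither trend nor robust prior) was run on these values with a mean per group for the 4 groups, which left 6 residual and 3.23 prior degrees of freedom. Tests were two-sided, with Benjamini-Hochberg adjustment over all genes and a threshold of 0.05. Probe sets shared by several genes were tested in a fit over all probe sets. Promoter windows were searched and aligned with Biopython 1.88 in Python 3.11.15. The script was tested on simulated data. The number of arrays limits the precision.

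The members and the gene lists were chosen with earlier results of these data known. Of each of 14 other lists up to 4 genes that passed with the largest difference per comparison were named, with Tlr9 and, for each called member, the 3 genes of highest correlation. Alternatives were other variance priors, scalings, a low-signal filter, array weights, other probe set choices, the compared groups alone, a threshold of 0.01 and leaving out each array.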

Additional observations from a re-analysis of the deposited data

How the results depend on the processing

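Over 21 alternatives no member that passed changed sign, while 43 of 1025 repeated values of members that had not passed did. Of the 9 measured genes, 5 passed between the unstimulated lines. This count was 3 with the low-signal filter, which left 6 members in the test, 4 after median centring or at an adjusted p of 0.01, 6 after quantile normalisation or when each comparison was fitted on its own groups, 7 under array weights, and 2 to 6 with 1 array left out; it was 2 without unstimulated TLR9KO array 1, where Ifi205, Trex1 and Aim2 lost their call. With beads 3 passed, 2 after median centring, with the low-signal filter or when fitted on its own groups, 4 after quantile normalisation or 75th percentile centring, 5 under array weights, and 3 to 5 with 1 array left out; it was 5 without wild-type bead array 3. None of the 9 genes passed a bead response or the difference of the responses in limma under any alternative. The Ifi204/Ifi211 probe set passed the wild-type bead response with array weights (0.38, adjusted p = 0.0419) and under no other alternative. The call of Ifi209 held in both line comparisons under every alternative in which it was tested.

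Over all genes the unstimulated count of 1645 was 756 after median centring, 2483 after quantile normalisation, 3262 in the compared groups alone, 4451 with array weights, 833 at an adjusted p of 0.01 and 681 to 3668 with 1 array left out. The bead count of 1439 was 704, 2263, 480, 6083 and 785 under the same alternatives and 597 to 4171 with 1 array left out. The bead response count of 0 became 16 in TLR9KO with array weights and 17 without wild-type bead array 3. It was 9174 in wild type with array weights. The difference of the responses gave 9 with array weights and 1 without wild-type bead array 3. Array weights ran from 0.0701 for wild-type bead array 3 to 12.1, and their estimation gave a convergence warning. Under the scalings the median of all genes lay between -0.04 and 0.07. The cause of these changes was not tested. Wild-type signals of Ifi209 and Ifi205 near the bottom of the scale limit the size of their differences. No paired analysis was possible because replicate numbers shared between groups are absent from the labels.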
